A study of Homo sapiens with 6 samples.

Results

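The genes described here make the small nuclear RNAs (snRNAs) of the spliceosome, together with the many copies of these genes that are scattered through the human genome. Genes of annotated class snRNA whose symbol begins with RNU or RNVU were chosen by their raw counts, which had to reach 10 when summed over all 6 libraries. This left 252 members of the 1895 snRNA genes with such a symbol and of the 57773 genes in the count table. Of the other snRNA genes, 1341 had no count in any library and 302 had between 1 and 9. At the limit, 19 members held exactly 10 counts and 21 genes just outside it held 9. Because the rule used these sums, the presence of the members at low level is a description. By family, 152 members belonged to U6, 32 to U1, 19 to U2, 14 to U4, 14 to U7, 8 to U5, 6 to U6atac, 4 to U4atac, 2 to U11 and 1 to U12.

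RNA was sequenced from HEK293, a cell line derived from human embryonic kidney, in 3 groups of 2 libraries each. All cells received a plasmid for Cas9 with puromycin resistance by transient transfection, which carried no guide in the empty vector group (EV), 4 guides against ZNF146 in sgZNF146 and 4 guides against ZNF507 in sgZNF507. They were kept in puromycin for 36 h and grown for 2 weeks in all, as mixed populations and not as clones, and the replicates were described as biological duplicates. The comparisons address what loss of either zinc finger protein does to the transcriptome. ZNF507 itself was lower in sgZNF507 than in EV (log2 fold change -0.62, adjusted p = 0.00195 by the quasi-likelihood test of edgeR with Benjamini-Hochberg adjustment). ZNF146 mRNA differed by -0.13 in sgZNF146 and by -0.21 in sgZNF507 against EV (both adjusted p = 1.00), so that its counts do not check that label. The markers VIM, KRT8, KRT18, PAX2, NEFM and CDH2 were counted in every library, between 139 and 31712 times per library, whereas PTPRC and ALB were counted 16 and 18 times over all libraries and COL1A1, listed as a marker of other cells, 9949 times. Library totals lay between 22724439 and 28524025 counts, of which the members took between 2786 and 4362.

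Spliceosomal snRNAs are short, abundant, non-polyadenylated RNAs that assemble with proteins into snRNPs. U1 pairs with the 5′ splice site and U2 with the branch point, after which U4, U5 and U6 join as a tri-snRNP, and U6 takes the place of U1 at the 5′ splice site. U11, U12, U4atac and U6atac do the same work with U5 on the rare minor introns, and U7 trims the 3′ ends of replication-dependent histone mRNAs. RNA polymerase II makes all of these except U6 and U6atac, which are made by RNA polymerase III. Each family has a few genes that make the RNA and numerous copies, most with symbols ending in P, that arose from it.

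Identity of sequence limits what can be counted per gene. The sequences of 4 U1 genes are shown to compare RNVU1-9, whose counts changed, with RNU1-1, the reference copy, and with the other highly counted variants. They are in the sense of each gene on GRCh37, 5′ to 3′, and capitals mark bases that differ from RNU1-1 or have no partner in it.
RNU1-1: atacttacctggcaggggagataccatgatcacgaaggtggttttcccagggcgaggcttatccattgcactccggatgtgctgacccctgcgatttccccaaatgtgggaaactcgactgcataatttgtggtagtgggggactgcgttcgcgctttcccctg
RNVU1-9: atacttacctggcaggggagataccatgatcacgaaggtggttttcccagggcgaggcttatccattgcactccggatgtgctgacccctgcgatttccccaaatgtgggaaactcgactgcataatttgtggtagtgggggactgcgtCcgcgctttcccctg
RNVU1-14: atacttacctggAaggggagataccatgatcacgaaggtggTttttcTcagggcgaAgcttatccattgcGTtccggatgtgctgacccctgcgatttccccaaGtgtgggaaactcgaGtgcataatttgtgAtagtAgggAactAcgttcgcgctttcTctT
RNVU1-15: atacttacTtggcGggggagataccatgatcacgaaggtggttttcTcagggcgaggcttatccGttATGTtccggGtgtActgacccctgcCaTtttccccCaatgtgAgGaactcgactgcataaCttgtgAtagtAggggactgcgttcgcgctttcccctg
RNU1-1 lies at chr1:16840617-16840780 on the minus strand and RNVU1-9 at chr1:147511004-147511167 on the minus strand. RNVU1-14 lies at chr1:148241465-148241628 on the plus strand and RNVU1-15 at chr1:148604908-148605072 on the minus strand. Counted from 1 at the 5′ end of RNU1-1, RNVU1-9 has a single substitution, T150C, and its sequence is identical to that of RNVU1-7, which was at 0 counts in every library. RNVU1-14 has 13 substitutions and RNVU1-15 has 17. The letters ACTTACCTG, with which U1 pairs to the 5′ splice site, begin at base 3 of RNU1-1, RNVU1-9 and RNVU1-14 and are not found in RNVU1-15. Over the family they were found in 11 of 32 members, which held 67.7% of U1 counts.

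The pair of U4 genes, which lie next to each other on chromosome 12 at chr12:120729566-120729706 and chr12:120730900-120731040 on the minus strand, differ by 4 substitutions, in capitals in RNU4-1.
RNU4-2: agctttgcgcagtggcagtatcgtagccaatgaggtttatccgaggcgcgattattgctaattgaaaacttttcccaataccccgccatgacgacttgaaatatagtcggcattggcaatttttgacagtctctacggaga
RNU4-1: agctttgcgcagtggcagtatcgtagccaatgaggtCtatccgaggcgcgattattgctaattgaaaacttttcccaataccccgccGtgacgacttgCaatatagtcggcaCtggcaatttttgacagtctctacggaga
GTAGTA, the branch point pairing stretch of U2, was found in 9 of 19 U2 members with 85.4% of the counts of the family. ACAGAG, the stretch of U6 that meets the 5′ splice site, was found in 90 of 152 U6 members with 59.3%.

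To see which members can be told apart by short reads, every 50-base word of each gene was looked up on both strands of GRCh37. In 201 of 252 members every word was found only once in the genome, and in 11 members no word was. These 11 were RNVU1-9, RNU1-1, RNU1-2, RNVU1-18, RNU6-1, RNU6-2, RNU6-7, RNU6-8, RNU6-6P, RNU6-32P and RNU6-37P, and they held 3368 of the 21667 counts. Words of RNVU1-9 occurred a median of 9 times in the genome. RNU1-1, RNVU1-18 and RNU1-2, whose sequences are identical, were counted 398, 250 and 77 times over the 6 libraries, and 4 further identical copies, among them RNU1-3 and RNU1-4, 0 times. How reads with several matches were placed is not given in the sources used here, so the counts of each of these genes are uncertain and may hold reads of an identical copy. RNU5E-1 is better resolved, with 77.5% of its words found once, and RNU2-59P and RNVU1-14 are resolved in full.

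The counts were concentrated in few genes. The median member had 21 counts over all libraries, 223 members had fewer than 100, and the top 5, RNU2-59P, RNVU1-9, RNVU1-14, RNU4-2 and RNU4-1, held 9368 together. Members were between 50 and 219 bases long. The RNA was cleaned on RNeasy Mini columns, which are designed to retain longer RNA, and libraries were made from ribosome-depleted RNA. The counts are of what passed these steps, and the part of the steps in the levels was not tested. Per kilobase of gene, mean levels over 6 libraries were 89.7 CPM per kb (CPM stands for counts per 1000000 counts of a library, with library sizes adjusted by TMM) for RNU2-59P, 85.9 for RNVU1-9, 72.0 for RNU4-2, 69.2 for RNVU1-14 and 56.7 for RNU4-1. RNU2-59P, a U2 copy within an intron of BTRC on the opposite strand, was the most counted U2 gene of the table. No gene of the table had the symbol RNU2-1, and all 19 U2 members have symbols ending in P. RNU2-2P was at 0 counts in all libraries, as was RNU7-1, the U7 gene. RNU2-2P lies in an exon of WDR74 and RNU7-1 in an exon of C12orf57, both on the same strand, and RNU7-1 had only words found once in the genome. A count of 0 allows up to 3 counts, or between 0.105 and 0.132 CPM in a library, and this floor covers counting error only.

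**Figure D1:**
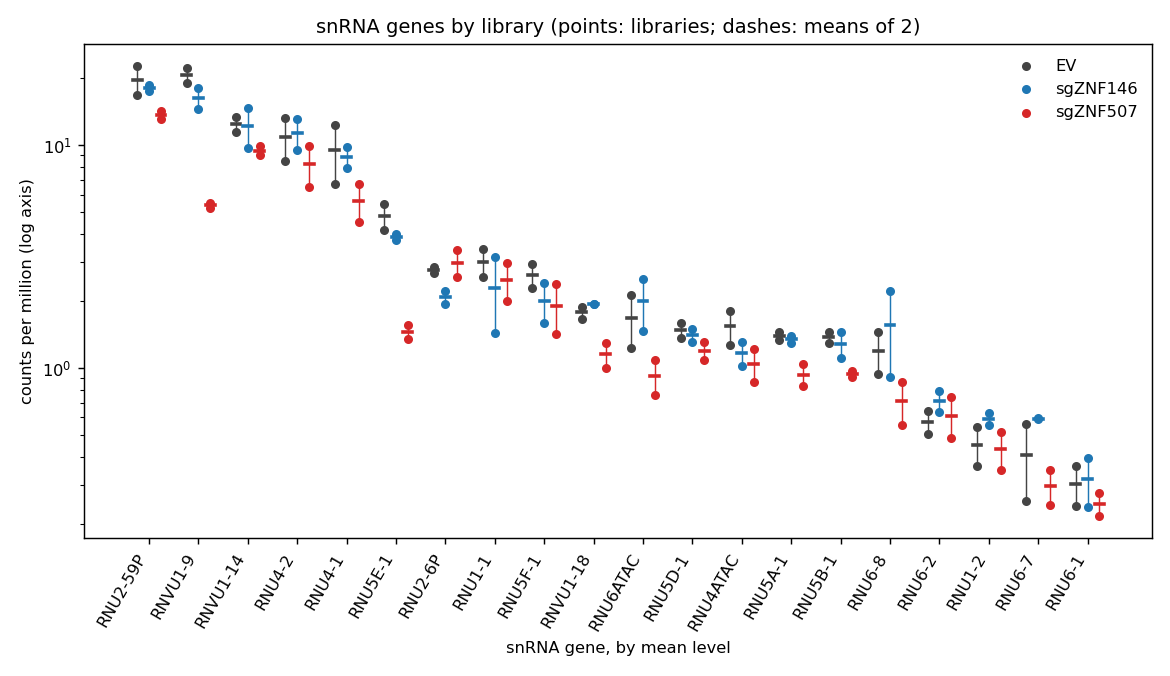
Level of 20 snRNA genes in each library, in CPM on a log axis, with the genes in order of mean level. Points are libraries, joined by a line within a group, and dashes are means of 2 libraries. The 2 sgZNF507 libraries sit far below all others for RNVU1-9 (5.51 and 5.25) and RNU5E-1 (1.56 and 1.35).

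In sgZNF507 against EV, 2 members passed the test and both were lower, the U1 gene RNVU1-9 and the U5 gene RNU5E-1. Of all 22010 genes tested, 0.182% were called in either direction and 0.0682% were called lower. Only 58 of the 252 members passed the filter on low counts and were tested (20 of U6, 17 of U1, 9 of U2, 6 of U5, 3 of U4atac, 2 of U4 and 1 of U6atac). RNVU1-9 was counted 552 and 527 times in EV, 457 and 365 times in sgZNF146 and 127 and 152 times in sgZNF507. The sgZNF507 libraries were below all 4 others. Its level was 20.6 ± 2.20 CPM in EV, 16.3 ± 2.47 in sgZNF146 and 5.38 ± 0.187 in sgZNF507 (SD, n = 2), which is -1.94 in log2 against EV (standard error 0.142, edgeR adjusted p = 7.74e-05). In bulk RNA fewer cells of a type and less RNA per cell cannot be told apart. Both sgZNF146 libraries were also below both EV libraries, without passing the test (-0.34, adjusted p = 1.00). It lies in no other annotated gene. Per kilobase it fell from the highest U1 level, 125.7 CPM per kb in EV, to 32.8 in sgZNF507, where RNVU1-14 was at 57.6.

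RNU5E-1 was counted 135 and 115 times in EV, 95 and 101 times in sgZNF146 and 36 and 39 times in sgZNF507. Again the groups did not overlap, with both sgZNF507 libraries lowest. Its level was 4.79 ± 0.893 CPM in EV, 3.88 ± 0.192 in sgZNF146 and 1.45 ± 0.153 in sgZNF507 (SD, n = 2), which is -1.72 in log2 against EV (standard error 0.214, edgeR adjusted p = 0.00407). The call depended on 1 library, since without EV replicate 1 the log2 fold change was -1.52 with an adjusted p of 0.0642. In EV it had the highest level per kilobase of the U5 genes, 39.9 CPM per kb, with RNU5F-1 at 22.3, RNU5D-1 at 12.7, RNU5A-1 at 12.002 and RNU5B-1 at 11.8. In sgZNF507 it stood at 12.1, among RNU5F-1 at 16.2, RNU5D-1 at 10.3, RNU5A-1 at 8.06 and RNU5B-1 at 8.09. RNU5E-1 overlaps an exon of ENSG00000285646 on the same strand, a gene not in the count table. Its copy RNU5E-4P, which lies on the opposite strand of that gene, had a log2 fold change of -0.71 with overlapping groups (adjusted p = 1.00).

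Apart from these, 6 members had an unadjusted p under 0.05 in sgZNF507 against EV, all lower. With RNVU1-9 and RNU5E-1 they made 8 of 58, where 3.39% of all genes tested had such a p and 1.96% had one with a lower level. RNU2-59P was counted 562 and 464 times in EV, 443 and 471 times in sgZNF146 and 327 and 380 times in sgZNF507, which gave -0.53 in log2 (standard error 0.136, adjusted p = 0.613). RNU4-1 was counted 307 and 185 times in EV and 155 and 131 times in sgZNF507 (log2 fold change -0.76, adjusted p = 1.00), and its groups overlapped in CPM. The neighbouring RNU4-2, at 331 and 235 against 229 and 189, gave -0.41, also with overlap. RNU6ATAC, the catalytic RNA of the minor spliceosome, had 53 and 34 counts in EV, 64 and 37 in sgZNF146 and 25 and 22 in sgZNF507 (-0.87). The remaining 3 were RNVU1-18 at -0.63, RNVU1-14, which overlaps an exon of ENSG00000276216 on the same strand, at -0.39 and the U6 copy RNU6-1003P at -2.06, which rests on 17 and 9 counts against 3 and 3. The sequence of RNVU1-18 is identical to those of RNU1-1 (-0.28) and RNU1-2 (-0.05), so its own value is uncertain. None of these 6 passed the adjusted threshold in the edgeR test with its filter on low counts, but with no filter RNU2-59P (edgeR adjusted p = 0.0116) and RNU4-1 (0.0012) did.

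Across the tested members, 42 had a negative and 16 a positive log2 fold change in sgZNF507 against EV, with a median of -0.31, beside 51% negative and a median of -0.00 over all genes. Both sgZNF507 libraries were below both EV libraries for 24 of 58 members and above for 4, where 15.3% and 14% of all genes tested had these orders. The filter chose these 58 on their counts, and without it, over all 252 members, the median was -0.07. The median also rested on 1 library: without EV replicate 1 it was -0.07, and without EV replicate 2 it was -0.45. Relative to the EV mean, the median over tested members was 0.11 and -0.11 in EV, 0.01 and -0.10 in sgZNF146 and -0.19 and -0.34 in sgZNF507. The 5 members with the largest negative values among those without overlap were RNU6-1003P, RNVU1-9, RNU5E-1, RNU6-1002P (-1.32) and RNU6-377P (-0.96). Above EV were 4, RNU6-762P (1.49), RNU1-134P (0.83), RNU6-611P (0.46) and RNU1-120P (0.19), all with adjusted p = 1.00, and RNU6-762P held no more than 10 counts in any library.

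**Figure D2:**
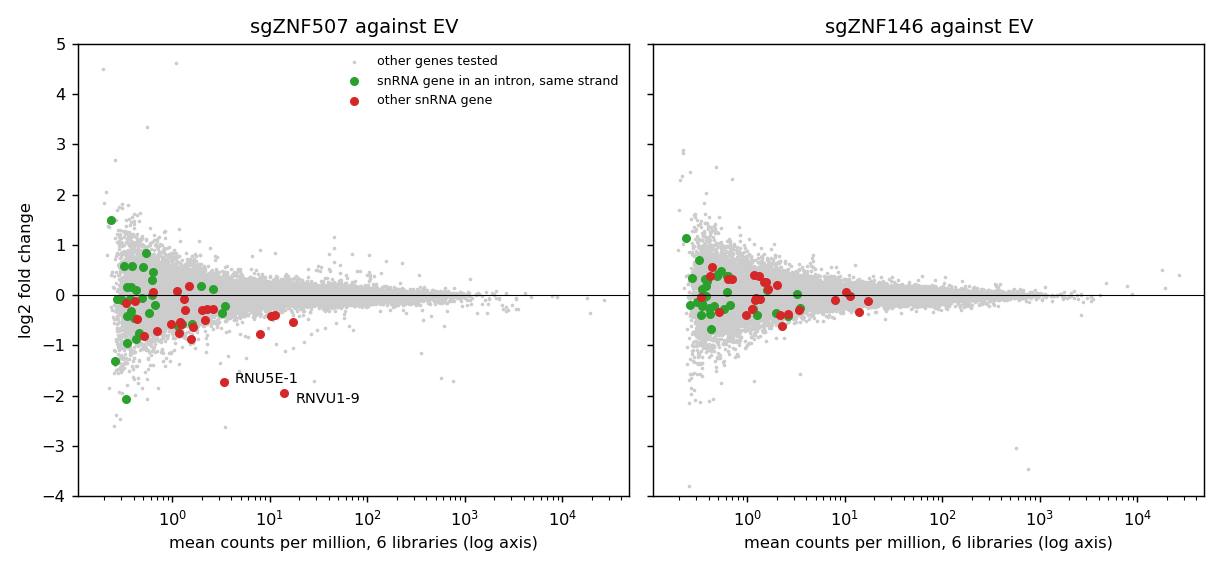
Log2 fold change of each tested gene against its mean level in CPM (log axis), for sgZNF507 against EV on the left and sgZNF146 against EV on the right. Grey points are the other genes of the 22010 tested, green points are snRNA genes in an intron of another gene on the same strand and red points the other snRNA genes; RNVU1-9 at -1.94 and RNU5E-1 at -1.72 are the members called, both on the left.

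The genes that are known to make the RNAs were also set apart from the copies, by a list that found 21 genes in the table. It found no gene with the symbol RNU2-1, RNU11 or RNU12. Of these, 16 were members and 15 were tested. In sgZNF507 against EV, 14 of the 15 had a negative log2 fold change, with a median of -0.54, where 51% of all genes tested were negative. Of the 15, 1 was called, RNU5E-1, and the largest positive value was 0.07 for RNU6-2. The 43 tested members outside the list, which include RNVU1-9, had a median of -0.19 with 28 negative. In sgZNF146 against EV, 8 of the 15 listed genes were negative, with a median of -0.05. Summed over the 16 listed members, the level was 50.1 and 35.8 CPM in EV, 41.0 and 41.5 in sgZNF146 and 32.7 and 23.6 in sgZNF507. The sgZNF507 libraries were lowest, and the gap from the upper of them to the lower EV library was smaller than that between the EV libraries.

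Summed by family, U1, U2 and U5 were lower in both sgZNF507 libraries than in all 4 others, and U4 and U6 overlapped between sgZNF507 and EV. The exact permutation of 2 libraries against 2 cannot give a p under 0.333, so these sums and the differences between families are given without a test. The 32 U1 members summed to 62.6 and 54.6 CPM in EV, 58.5 and 46.2 in sgZNF146 and 37.5 and 35.2 in sgZNF507, a log2 ratio of -0.69 against EV. Without RNVU1-9 the ratio was -0.29, with 40.5 and 35.5 CPM in EV and 31.9 and 29.9995 in sgZNF507, still without overlap between these groups. The sgZNF146 libraries, at 40.5 and 31.7 CPM, then overlapped with sgZNF507. The 8 U5 members summed to 13.8 and 11.97 CPM in EV, 12.1 and 10.2 in sgZNF146 and 7.77 and 6.59 in sgZNF507, a ratio of -0.84. Without RNU5E-1 the U5 ratio was -0.50, and sgZNF507, at 6.21 and 5.25 CPM, still did not overlap with EV. The sgZNF146 libraries, at 8.31 and 6.20 CPM, then overlapped with sgZNF507. U2 stood at 33.8 and 27.2 CPM in EV, 27.3 and 28.1 in sgZNF146 and 25.0 and 23.1 in sgZNF507 (-0.34, or -0.18 without EV replicate 1). RNU2-59P held 2647 of the 4240 U2 counts. It stood at 22.6 and 16.8 CPM in EV, 17.5 and 18.7 in sgZNF146 and 14.2 and 13.1 in sgZNF507. The U2 sum without RNU2-59P was not taken, so a lower sum is not shown for the other U2 copies. The U2 sum holds neither RNU2-1 nor RNU2-2P. U4 overlapped between groups, with 26.8 and 16.5 CPM in EV and 18.6 and 12.7 in sgZNF507 (-0.47). The U4 ratio rested on single libraries, at -0.08 without EV replicate 1, -0.78 without EV replicate 2, -0.78 without sgZNF507 replicate 1 and -0.22 without sgZNF507 replicate 2. The 152 U6 members gave 29.97 and 25.0 CPM in EV, 29.2 and 26.2 in sgZNF146 and 25.7 and 26.4 in sgZNF507, a ratio of -0.08 with overlap, which was 0.06 without EV replicate 1 and -0.20 without EV replicate 2.

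**Figure D3:**
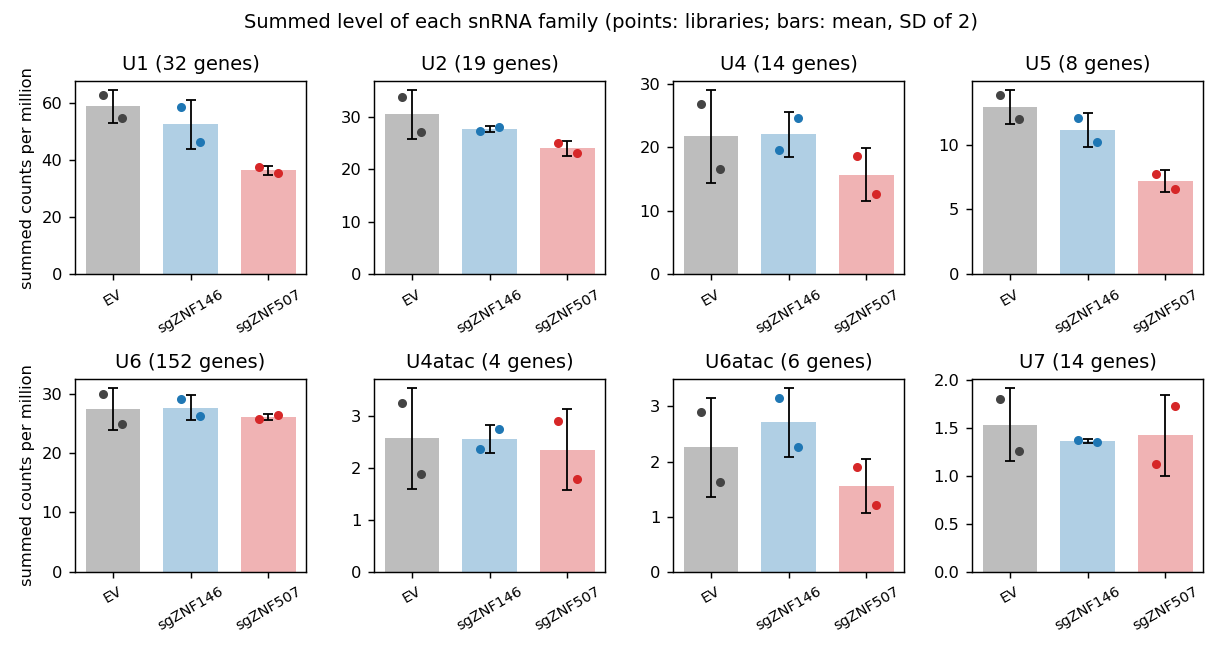
Summed level of the members of 8 snRNA families, in CPM, with bars for the mean of 2 libraries, error bars for the SD and points for the libraries. For U1 and U5 both sgZNF507 points lie below all EV and sgZNF146 points, whereas the U6 groups overlap, with means of 26.1 to 27.7.

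Most members lie inside other genes. On the same strand, 193 of 252 members lie in an intron and 11 overlap an exon, while 12 overlap a gene on the opposite strand only and 36 overlap none. The intronic members had few counts each, since 185 of the 193 had fewer than 100. Their sum of 7200 counts overlapped between groups, at 51.8 and 43.98 CPM in EV, 48.0 and 44.5 in sgZNF146 and 46.0 and 44.8 in sgZNF507. The 59 other members, with 14467 counts, gave 123.4 and 96.4 CPM in EV, 105.9 and 97.4 in sgZNF146 and 74.9 and 64.3 in sgZNF507. Both sgZNF507 libraries were below the others here, and without RNVU1-9 and RNU5E-1 it was 95.8 and 73.2 in EV against 67.9 and 57.8. Among tested members, 23 of 26 outside such introns had a negative log2 fold change (median -0.48) and 19 of 32 within them (median -0.09); both calls were outside. The difference between the 2 kinds was not tested. Of 31 genes that hold the 32 tested intronic members, 28 were tested themselves and none was called in any comparison. In sgZNF507 against EV the log2 fold changes of these hosts ran from -1.05 to 0.08, with a median of 0.01. Among 29 members with a tested host, 14 had the same sign as the host. RNU6-1003P, for example, lies in an intron of BASP1, whose log2 fold change was -0.18. Within families, U1 sums were lower in sgZNF507 than in EV on both sides of this split. The 12 outside such introns were at 49.3 and 42.8 CPM in EV, 45.4 and 35.4 in sgZNF146 and 26.8 and 25.1 in sgZNF507. RNVU1-9 is among them, at 22.2 and 19.1 CPM in EV, 18.0 and 14.5 in sgZNF146 and 5.51 and 5.25 in sgZNF507. Their sum without RNVU1-9 was not taken. The 20 within were at 13.3 and 11.8 CPM in EV, 13.1 and 10.8 in sgZNF146 and 10.7 and 10.1 in sgZNF507. In U2 the sums were 26.1 and 20.1 CPM in EV against 17.4 and 15.2 in sgZNF507 for 6 members outside such introns, and 7.67 and 7.13 against 7.55 and 7.91 for the 13 within. RNU2-59P, among those outside, was by itself at 22.6 and 16.8 CPM in EV and 14.2 and 13.1 in sgZNF507. Reads of an unspliced host transcript would be counted for an intronic member, and their part was not tested.

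**Figure D4:**
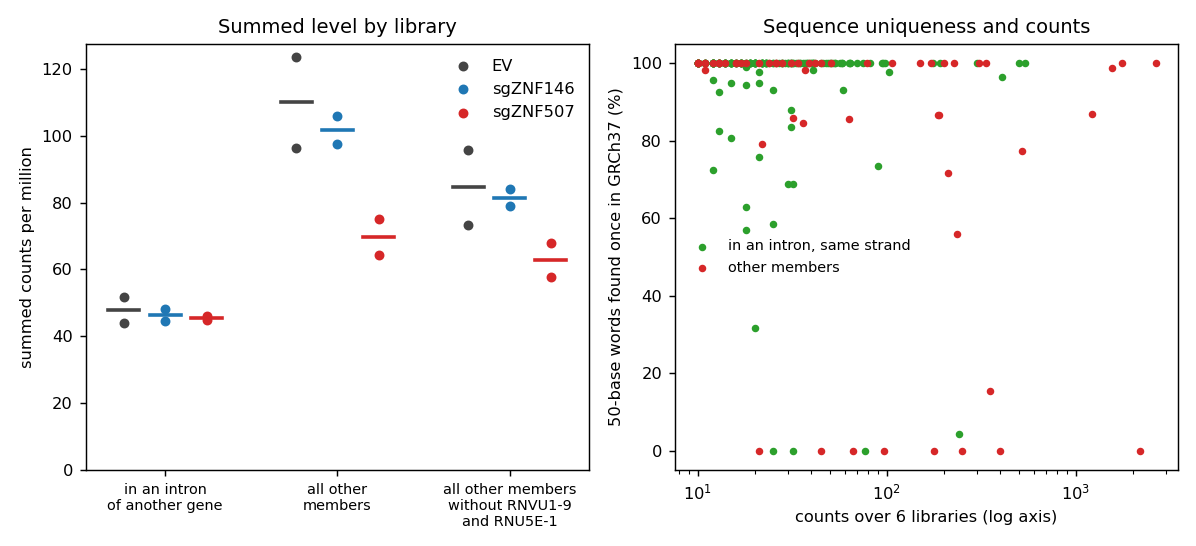
Left, summed level in CPM of the 193 members in an intron of another gene on the same strand, of the 59 others and of the others without the 2 called genes, with points for libraries and dashes for means of 2. Right, the percentage of 50-base words of each member found once in GRCh37 against its counts over 6 libraries (log axis); intronic members overlap between groups, at 43.98 to 51.8, and RNVU1-9 is the highest of the genes at 0%.

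In sgZNF146 against EV, no member and no other gene was called by edgeR (0% of 22010). By DESeq2 on 6 libraries no gene was called either. Other fits called genes, 3 by DESeq2 and 3 by edgeR on the 4 libraries compared and 19 by edgeR with no filter on low counts, but no member. Of the members, 2 had an unadjusted p under 0.05, where 2.43% of all genes tested had one and 1.23% had one with a lower level. They were RNVU1-9 (log2 fold change -0.34) and RNVU1-15, counted 66 and 78 times in EV and 51 and 39 times in sgZNF146 (-0.62), both with an adjusted p of 1.00. Of the 58 tested members 32 were negative and 26 positive, with a median of -0.04. That median took either sign when single libraries were left out, from -0.18 to 0.11. Both sgZNF146 libraries were below both EV libraries for 13 members and above for 5, where 14.6% and 14% of all genes had these orders. The largest values without overlap were -0.68 for RNU6-826P, the -0.62 of RNVU1-15, -0.41 for RNU2-6P, -0.39 for RNU2-61P and -0.37 for RNU6-1305P, and 0.70 for RNU2-34P, 0.56 for RNU6-7, 0.38 for RNU1-2, 0.27 for RNU1-120P and 0.13 for RNVU1-18. Family sums overlapped between sgZNF146 and EV for U1, U2, U4, U5, U6, U7, U11, U4atac and U6atac.

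In sgZNF507 against sgZNF146, RNVU1-9 (log2 fold change -1.60, standard error 0.144, edgeR adjusted p = 0.000431) and RNU5E-1 (-1.42, standard error 0.220, edgeR adjusted p = 0.0204) were lower and no other member was called, beside 0.173% of all genes. At an unadjusted p under 0.05 there were 9 members, 8 of them lower, beside 4.03% of all genes and 2.16% lower. This comparison shares the sgZNF507 libraries with the first. The call of RNU5E-1 was lost without sgZNF146 replicate 1 (adjusted p = 0.179), sgZNF146 replicate 2 (0.143), sgZNF507 replicate 1 (0.0647) or sgZNF507 replicate 2 (0.165), whereas its log2 fold change stayed between -1.53 and -1.30. RNVU1-9 remained below 0.05 without any single library in both comparisons. The 58 tested members had a median of -0.29, which was -0.10 without sgZNF146 replicate 1.

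Members of the minor spliceosome were counted sparsely. RNU4ATAC, the partner of U6atac, had 45 and 35 counts in EV, 26 and 33 in sgZNF146 and 28 and 25 in sgZNF507 (log2 fold change -0.57 against EV, adjusted p = 1.00), and its copies RNU4ATAC18P and RNU4ATAC16P gave 0.30 and 0.56. The U6atac members summed to 2.89 and 1.63 CPM in EV, 3.15 and 2.27 in sgZNF146 and 1.91 and 1.21 in sgZNF507, from 333 counts in all, of which RNU6ATAC held 235, RNU6ATAC24P 35 and RNU6ATAC27P 20. The only U12 member, the copy RNU12-2P, had 14 counts over the 6 libraries, and the U11 copies RNU11-3P and RNU11-6P had 30 and 12. All 14 U7 members were copies, led by RNU7-57P with 23 counts, RNU7-135P with 22 and RNU7-163P with 20, and they summed to 225 counts. The U11 and U12 sums, of 42 and 14 counts, were higher in both sgZNF507 libraries than in EV, on at most 10 counts a library. RNU4-32P, the third most counted U4 gene, had 42. None of the U7, U11 and U12 members reached the filter.

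A pair of genes outside the rule, annotated as lncRNA and without an RNU symbol, aligned with the U11 and U12 copies. The link to U11 and U12 rests on these alignments alone. ENSG00000270103 (chr1:28975112-28975242, plus) aligned over all its 131 bases with RNU11-3P, at 87.1% identity. It was counted 132 and 118 times in EV, 111 and 108 in sgZNF146 and 81 and 102 in sgZNF507 (log2 fold change -0.44 against EV, adjusted p = 1.00). ENSG00000270022 (chr22:43011250-43011913, plus) is 664 bases long, and its first 148 bases aligned with RNU12-2P at 90.9% identity. This stretch, at chr22:43011250-43011397, is shown with capitals at its 8 substitutions from RNU12-2P, and the 8 gap bases are not marked.
ENSG00000270022: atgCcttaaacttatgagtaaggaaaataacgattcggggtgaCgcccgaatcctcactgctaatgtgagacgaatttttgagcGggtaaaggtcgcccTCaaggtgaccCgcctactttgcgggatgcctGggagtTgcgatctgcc
The gene was counted 718 and 652 times in EV, 771 and 603 in sgZNF146 and 357 and 349 in sgZNF507. Both sgZNF507 libraries were below those of EV and sgZNF146, which overlapped with each other. At 26.2 ± 3.72 CPM in EV and 13.8 ± 2.44 in sgZNF507 (SD, n = 2) the log2 fold change was -0.93 (standard error 0.150, edgeR adjusted p = 0.0248). Against sgZNF146 it was -0.99 (edgeR adjusted p = 0.0192). Counts over the whole 664 bases do not show how many came from the stretch aligned with RNU12-2P. Both genes were looked at because the rule finds no U11 or U12 gene other than copies.

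Promoters of snRNA genes carry an upstream element in which the octamer ATTTGCAT binds the factor OCT1. The octamer was searched on both strands from 250 bases upstream to 50 bases into each gene. It was found in 19 of 252 members (7.54%), in 48 of the 1643 snRNA genes below 10 counts (2.92%) and in 623 of 35116 RefSeq promoters of the same length on GRCh38.p14 (1.77%). Of the 16 listed members 9 held it, RNU4-2, RNU4ATAC, RNU5A-1, RNU5B-1, RNU5E-1, RNU5F-1, RNU6-1, RNU6-7 and RNU6-8. At RNU5E-1, the called gene that has it, the octamer begins 220 bases before the gene. None was found at RNVU1-9, the other called gene. In sgZNF507 against EV the median of tested members with the octamer was -0.56 on the log2 scale (11 of 12 negative) and of those without it -0.24 (31 of 46 negative). Only 4 of these 12 lie outside the list of snRNA genes, with a median of -0.33 (3 negative). The others are listed genes, and the 15 tested listed genes together had a median of -0.54. The difference by octamer was not tested and cannot be told apart from that by list. TATA between 35 and 21 bases upstream, where RNA polymerase III genes of this type have their TATA box, was found in 27 members, 20 of them U6, and in 5.39% of the RefSeq promoters. RNU6-1, RNU6-7 and RNU6-8 held both. A match is a description of letters, not evidence of binding.

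The proteins that make, carry and hold snRNAs did not pass the test. Of 140 entries in 11 lists, 135 were matched to genes of the table and 134 were tested, and none was called in any comparison, by the same edgeR test. In sgZNF507 against EV 5 of 134 had an unadjusted p under 0.05, all lower. Of all genes tested 3.39% had such a p and 1.96% had one with a lower level. The 5 were SNRPF and SNRPG of the Sm ring, SNRNP70 of U1, SF3B6 of U2 and CPSF2, a cleavage factor subunit, with log2 fold changes between -0.20 and -0.16. In sgZNF507 against EV 87 of the 134 were negative and 47 positive, and these counts were the same in sgZNF146 against EV. Of all genes tested 51% and 50.5% were negative in these comparisons. The median over all lists was -0.03 in sgZNF507 and -0.02 in sgZNF146 against EV. By list, the median in sgZNF507 was -0.01 for Sm and LSm proteins, -0.02 for U1, -0.07 for U2, 0.02 for U4, U5 and U6 and -0.03 for minor spliceosome proteins, with -0.01 for U7 and histone processing. For the factors that transcribe snRNA genes it was -0.04, for Integrator, which cleaves the nascent RNA, 0.01, for export and cap factors -0.06, for the SMN complex and methylosome, which load the Sm ring, -0.03, and for end processing and modification -0.06. The first gene of each list gave 0.10 for SNRPB, -0.16 for SNRNP70, -0.16 for SNRPA1, 0.02 for PRPF8, -0.05 for SNRNP25, -0.06 for LSM10, -0.05 for SNAPC4, 0.00 for INTS11, -0.00 for PHAX, -0.27 for SMN1 and -0.07 for TUT1. SMN1 shares nearly its whole sequence with SMN2, so its counts are uncertain.

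Other short RNAs varied between libraries as well. The summed level of 1457 snoRNA genes was 1267.5 and 972.5 CPM in EV, 1321.9 and 1170.5 in sgZNF146 and 768.3 and 817.6 in sgZNF507, and sgZNF507 was lowest. Of 148 snoRNA genes tested 3 were called, all lower in sgZNF507 than in EV, with a median of -0.12. Over all genes tested, 0.0682% were called lower in sgZNF507 than in EV and the median was -0.003. miRNA genes overlapped between groups, at 216.4 and 202.2 CPM in EV, 218.0 and 207.7 in sgZNF146 and 213.9 and 198.6 in sgZNF507, and 1 of 152 tested was called lower. The misc_RNA class, which holds 7SK and other abundant RNAs, summed to 37158 and 40837 CPM in EV, 55026 and 38835 in sgZNF146 and 33213 and 33919 in sgZNF507, with no gene of 306 called and a median of -0.11. No gene of the table had the class scaRNA. The part of such differences between libraries in the snRNA levels was not tested.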

How the data were processed

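RNA of HEK293 cells was sequenced as strand-specific, ribosome-depleted, paired-end libraries, and the samples were grouped by the treatment and replicate in their labels. The authors clipped adapters with the Fastx Toolkit, removed ribosomal reads with Bowtie, mapped the rest to hg19 (GRCh37) with TopHat2 and counted them per Ensembl gene with featureCounts; the deposited values are raw counts per gene, not normalized and not pooled. The TopHat2 and featureCounts versions and the treatment of multiply mapped reads are not given in the sources used here. PCR duplicates were counted as reads.

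Gene class and position came from GENCODE for GRCh37, which matched 55538 of 57773 identifiers (96.1%). The whole table was fitted with edgeR 4.0.16 under R 4.3.3 (filterByExpr, TMM, glmQLFit and glmQLFTest on all 6 libraries, common dispersion 0.0052), with Benjamini-Hochberg adjustment over 22010 genes and a threshold of 0.05. Standard errors were derived from the F statistic. CPM are counts scaled to TMM-adjusted library sizes. DESeq2 1.42.0 was an alternative. The fits were tested on simulated data, in which only genes with more counts than most members were changed. How well changes are found at low counts was not tested. Sequences were read from GRCh37 and aligned with Biopython 1.88, and promoters of other genes came from RefSeq. Plots used matplotlib 3.10.9 (Python 3.11.15).

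Members, lists and tests were chosen with earlier results of these data known. Genes named are those called in any comparison, the 3 most counted per family, the listed snRNA genes, the 5 largest changes per direction without overlap in each comparison with EV, the first gene of each list, ZNF146 and ZNF507, and markers of these and other cells (VIM, KRT8, KRT18, PAX2, NEFM, CDH2, PTPRC, ALB and COL1A1). The exceptions, named after their values were seen, are RNU5E-4P, RNVU1-7, RNU6-6P, RNU6-32P, RNU6-37P, ENSG00000270103, ENSG00000270022, BASP1, the list genes SNRPF, SNRPG, SF3B6 and CPSF2, SMN2 as the copy of SMN1, and the host genes of named members. Counting intervals and floors cover counting error only. Other RNA classes were given as sums and as counts of genes called. The sequences of some genes are not reported here.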

Additional observations from a re-analysis of the deposited data

How the results depend on the processing

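In sgZNF507 against EV the count of 2 called members was 2 with other normalizations, with at least 10 counts in every library, with DESeq2 on 6 or 4 libraries and with edgeR on 4. It was 4 with no filter on low counts, where RNU2-59P (adjusted p = 0.0116) and RNU4-1 (adjusted p = 0.0012) were added by edgeR, and between 1 and 2 when a library was left out. All genes called numbered 40, but 101 without the filter, 121 with the replicate block and 12 without EV replicate 1. In sgZNF507 against sgZNF146 the count of members was 4 without the filter, 1 with DESeq2 on 4 libraries (RNU5E-1 at an adjusted p of 0.0508) and between 1 and 2 when a library was left out. In sgZNF146 against EV it was 0 in every setting, while all genes called numbered 0, but 19 without the filter, 3 by edgeR or DESeq2 on 4 libraries and 33 with the replicate block.

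Labels share replicate numbers but name no shared batch, and deviations of same-numbered libraries correlated at 0.138, 0.176 and 0.145 across genes. With the replicate block 4 members were called in sgZNF507 against EV, RNU2-59P (adjusted p = 0.00183) and RNU4-1 (0.00695) being added, and 5 in sgZNF507 against sgZNF146.

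The median log2 fold change of tested members in sgZNF507 against EV was -0.0741 with no filter, -0.0925 with DESeq2 on 6 libraries and -0.0927 on 4, and lay between -0.448 and -0.0658 when a library was left out. In sgZNF507 against sgZNF146 these were -0.0537, -0.0914 and -0.0933, and between -0.39 and -0.10. In sgZNF146 against EV it lay between -0.18 and 0.11. With no filter and with DESeq2 more members of low count enter the median.

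With a library left out, the log2 ratio of family sums in sgZNF507 against EV lay between -0.78 and -0.59 for U1, -0.49 and -0.18 for U2, -0.78 and -0.08 for U4, -0.97 and -0.73 for U5, -0.20 and 0.0609 for U6, -0.45 and 0.17 for U7, 0.28 and 0.61 for U11, 0.69 and 1.54 for U12, -0.52 and 0.32 for U4atac, -0.90 and -0.06 for U6atac. With a library left out, the log2 ratio of family sums in sgZNF146 against EV lay between -0.34 and -0.00 for U1, -0.28 and 0.0265 for U2, -0.29 and 0.41 for U4, -0.34 and -0.10 for U5, -0.11 and 0.15 for U6, -0.41 and 0.11 for U7, -0.51 and 0.80 for U11, 0.45 and 1.30 for U12, -0.35 and 0.44 for U4atac, -0.09 and 0.73 for U6atac.
Without members that overlap another gene on the same strand, the log2 ratio in sgZNF507 against EV was -1.11 for U1, -0.51 for U5 and -0.21 for U6, and that of U7 in sgZNF146 against EV was 0.27. For U1 this left out RNVU1-14 and kept RNVU1-9, which was at -1.94 by itself. For U5 it left out RNU5E-1, and without that gene alone the U5 ratio was -0.50. These ratios therefore depend on which single genes were kept. With 2 libraries in each group, and counts under 100 in 223 members, precision was limited.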
